A study of Homo sapiens with 6 samples.

Results

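The SWI/SNF, CHD and INO80 chromatin remodellers were followed at the RNA level in OVCAR5 cells, an established human line studied in ovarian cancer research. Members are the protein-coding genes whose symbols match a fixed pattern, a group picked with earlier results of these data known. It covers genes of the SMARC, ARID, CHD, INO80, ACTL6, ACTR5/ACTR8, BRD7/BRD9 and DPF families together with PBRM1, BPTF and ATRX. This rule gave 48 genes of the 62656 in each table, and 47 of them had enough counts to be tested among 19029 genes. Cells were exposed for 3 days to 100 nM NTX301, which the series title calls a DNA hypomethylating agent, or to dimethyl sulfoxide (DMSO), with 3 libraries per treatment. Nothing in the labels tells whether replicate libraries are from different cultures, so p-values measure only the spread between these libraries, which may be technical.

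Chromatin remodellers are complexes built around an ATPase that uses the energy of ATP to slide, eject or exchange nucleosomes, the histone spools around which DNA is wound. SWI/SNF complexes (BAF, PBAF and non-canonical BAF) open regulatory DNA, ISWI complexes space nucleosomes, INO80 exchanges and moves them at promoters and replication forks, and CHD proteins act alone or, as CHD3, CHD4 and CHD5, in the deacetylase complex NuRD. In ovarian cancer this group is known for inactivating mutations of ARID1A in clear cell and endometrioid tumours and of SMARCA4 in small cell carcinoma of the hypercalcaemic type. The comparison asks which members change in RNA level when OVCAR5 cells are treated with NTX301.

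The libraries held 22131175 to 25743732 estimated counts. Levels of 1 gene across libraries are given in CPM, which are counts relative to library size after scaling by edgeR's trimmed mean of M-values (TMM), and levels of different genes are compared in TPM, which also corrects for gene length. Of 6 epithelial markers, KRT8 (2159 TPM), KRT18 (1794 TPM), KRT19 (299 TPM), CLDN4 (120 TPM) and EPCAM (88.5 TPM) were well above CDH1 (3.36 TPM) with DMSO. The ovarian lineage factors PAX8 (5.88 TPM), WT1 (0.04 TPM), EMX2 (0.01 TPM) and SOX17 (no counts in any library) were low or absent with DMSO. MUC16, on the same list, was also low (0.133 TPM) and fell with NTX301 (log2 -2.31 ± 0.26). PAX8 had a log2 fold change of 0.22 ± 0.11 and was not called. Of the leukocyte markers, PTPRC and CD3E had no counts with DMSO, but CD14 stood at 16.7 TPM and rose (27.2 TPM with NTX301), and LYZ stood at 2.98 TPM and fell (2.40 TPM with NTX301). Summed TPM of that list ranged from 18.6 to 20.2 with DMSO and from 29.4 to 30.04 with NTX301. Summed TPM of 6 proliferation markers ranged from 368 to 412 with DMSO and from 952 to 994 with NTX301, and all 6 rose. In bulk RNA, fewer cells of a type and less RNA per cell cannot be told apart. Summed TPM of 8 fibroblast markers, of which COL1A2 had no counts with DMSO, ranged from 5.21 to 5.89 and from 21.1 to 21.95, and 4 of the 5 tested rose. The 4 include COL3A1, which had 3, 9 and 5 counts with DMSO and 17, 21 and 15 with NTX301. COL3A1 passed the filter on low counts only through the NTX301 libraries, where it is high, so its call supports nothing. Summed TPM of 6 epithelial markers ranged from 4375 to 4551 and from 2451 to 2532, and 5 of 6 fell, while CDH1 rose (log2 0.31 ± 0.09). The part of these differences in the results below was not tested.

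With NTX301, 12 of 19 tested SWI/SNF subunits fell relative to the typical gene, led by SMARCD3, SMARCC2 and the ATPase SMARCA4, while the low-level subunit DPF1 rose. Among the other families CHD4, CHD6, BPTF and ATRX fell, and CHD5, ARID3B and ARID5A rose. Of the 47 tested members, 14 rose (29.8%) and 24 fell (51.1%), against 35.4% of all tested genes that rose and 35.1% that fell (edgeR's quasi-likelihood test with a threshold of 0.05 on the Benjamini-Hochberg adjusted p over all tested genes). In either direction 38 of 47 were called, beside a background of 70.5%. The 14 include DPF3, which passed the filter on low counts only through the NTX301 libraries where it is high, so its call supports nothing. DPF1, CHD5, ARID5A, ARID3B and, with that limit, DPF3 rose by 2-fold or more, and SMARCD3 and SMARCC2 fell by as much, against 13.4% and 8.55% of all tested genes. The median log2 fold change of the 47 was -0.14, and 0 is the typical gene under TMM scaling. Without a scaling factor the median of all tested genes moved to 0.21 and that of the members to 0.07, and 21 members rose and 16 fell (background 46.2% and 24.9%). On log2(TPM + 1), tested with limma, 19 rose and 12 fell (background 45.5% and 22.7%). More members thus rose than fell on both of these scales, and directions below are relative to the typical gene.

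**Figure D1:**
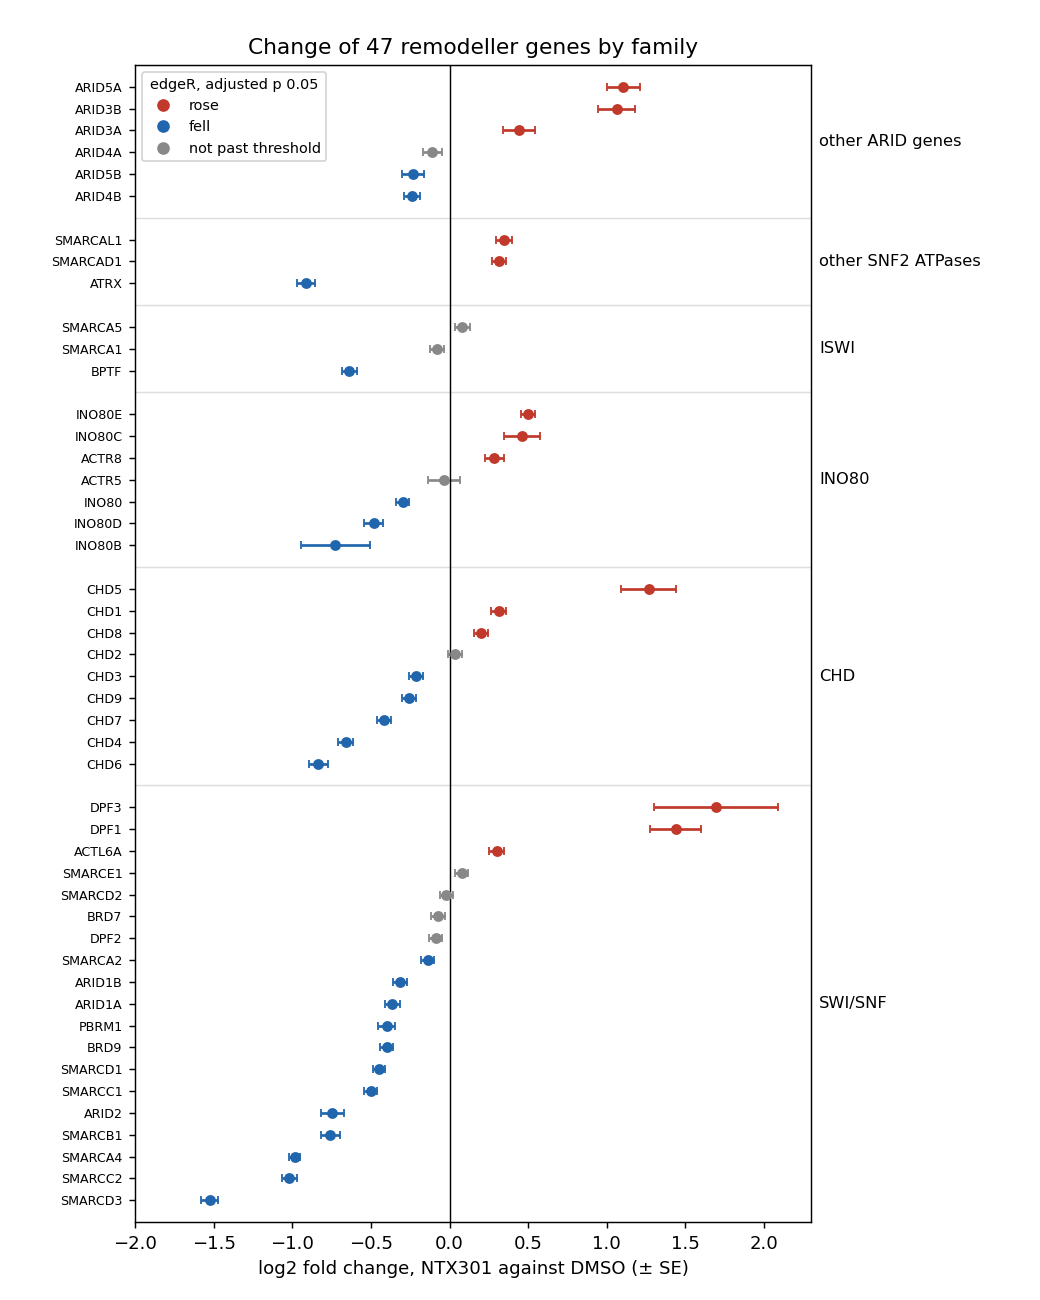
Log2 fold change of NTX301 against DMSO for the 47 tested members (horizontal axis, points with standard errors), grouped by family and ordered by size within each. Red points rose, blue points fell and grey points did not pass the threshold. SWI/SNF subunits lie mostly left of 0, down to -1.53 for SMARCD3.

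In the SWI/SNF family 12 of 19 tested subunits fell and 3 rose, beside a background of 35.1% that fell and 35.4% that rose. The 3 include DPF3, whose call supports nothing. The median log2 fold change was -0.37, and -0.16 without a scaling factor, when 10 fell and 7 rose, DPF3 among them (background 24.9% and 46.2%). On log2(TPM + 1) 8 fell and 6 rose (background 22.7% and 45.5%). With the length trend removed 14 fell and 3 rose, again with DPF3 (background 35.0% and 36.2%). The complex runs on 1 of 2 interchangeable ATPases, SMARCA4 (BRG1) or SMARCA2 (BRM). SMARCA4 (ENSG00000127616.21, chromosome 19, 10960825 to 11079426 in GRCh38) stood at 187, 194 and 189.8 CPM in DMSO replicates 1, 2 and 3, and at 97.3, 94.9 and 96.2 CPM with NTX301. The groups did not overlap, and the fitted change was -0.99 ± 0.04 on the log2 scale (estimate ± SE, edgeR adjusted p = 5.8e-10), close to 2-fold. SMARCA2 changed far less, from 78.1 ± 1.42 to 70.9 ± 2.67 CPM (mean ± SD, n = 3 each). Its fall of 0.14 ± 0.04 (edgeR adjusted p = 0.011) lost its call when no scaling factor was used, where the sign turned (0.07, adjusted p = 0.17).

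The core subunits surround the ATPase and are present in most forms of the complex. Of these 7, SMARCB1, SMARCC1, SMARCC2, SMARCD1 and SMARCD3 fell, and SMARCD2 and SMARCE1 did not pass the threshold. SMARCC2 (BAF170, ENSG00000139613.12, chromosome 12, 56162983 to 56189567), a scaffold subunit, had 97.3, 101 and 107 CPM with DMSO and 47.7, 51.4 and 51.4 CPM with NTX301. All 3 treated libraries lay at about the same level, well under the lowest DMSO library (log2 -1.02 ± 0.05, edgeR adjusted p = 4.2e-09). Its paralogue SMARCC1 (BAF155) fell by 0.50 ± 0.04, from 154 ± 3.11 to 109 ± 4.86 CPM (n = 3 each). SMARCD3 (BAF60C, ENSG00000082014.17, chromosome 7, 151238764 to 151277896), known for its part in heart and muscle development, gave 39.0, 41.5 and 39.9 CPM with DMSO and 14.4, 13.5 and 13.96 CPM with NTX301. It was the member with the largest fall, 2.88-fold by the fit (log2 -1.53 ± 0.05, edgeR adjusted p = 4.8e-10). SMARCD1 fell by 0.45 ± 0.04 while SMARCD2 stood at 76.2 ± 2.63 and 75.1 ± 0.903 CPM (n = 3 each, log2 -0.02 ± 0.04, edgeR adjusted p = 0.65). Without a scaling factor SMARCD2 rose (0.18, edgeR adjusted p = 0.0011).

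SMARCB1 (SNF5), the subunit lost in rhabdoid tumours, fell by 0.76 ± 0.06, from 41.2 ± 2.39 to 24.4 ± 1.10 CPM (n = 3 each). SMARCE1 (BAF57), an HMG-box subunit, was the most abundant member per length in both groups, at 171 ± 3.47 TPM with DMSO and 211 ± 3.66 TPM with NTX301 (n = 3 each). In the edgeR fit its log2 fold change was 0.08 ± 0.04 (adjusted p = 0.10), and it passed the threshold without a scaling factor (0.28) and on log2(TPM + 1) (0.30). The actin-related subunit ACTL6A (BAF53A), used in dividing cells and also part of INO80, rose by 0.30 ± 0.05, from 94.3 ± 5.26 to 116 ± 3.74 CPM (n = 3 each). ACTL6A shares 124 exon bases with MRPL47 on the other strand, which itself rose by 1.07. ACTL6B, the neuronal counterpart, was not tested: it had 1, 0 and 1 counts with DMSO and 0 in each NTX301 library, under a floor of 3 counts over a group, so no fold is given. Floors cover counting error only.

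ARID1A and ARID1B are alternative DNA-binding subunits of canonical BAF, and they fell by 0.36 ± 0.05 and 0.32 ± 0.05. ARID1A went from 124 ± 2.49 to 96.6 ± 5.90 CPM and ARID1B from 89.9 ± 2.72 to 72.2 ± 3.90 CPM (n = 3 each). The ARID1B call was lost without a scaling factor (-0.11, edgeR adjusted p = 0.073), and both were lost on log2(TPM + 1). Among the PBAF subunits ARID2, which takes the place of ARID1A and ARID1B, fell by 0.75 ± 0.07 and PBRM1, a protein of many bromodomains, by 0.40 ± 0.05. The PBRM1 call was lost on log2(TPM + 1) (-0.16, limma adjusted p = 0.12). BRD7, a further PBAF bromodomain protein, stood at 104.5 ± 4.08 and 99.1 ± 3.65 CPM (n = 3 each, log2 -0.08 ± 0.04, edgeR adjusted p = 0.14). The alternatives called BRD7 in opposite directions. It fell with the length trend removed (-0.11, edgeR adjusted p = 0.034) and rose without a scaling factor (0.13, edgeR adjusted p = 0.017). On log2(TPM + 1) BRD7 also rose (0.12, limma adjusted p = 0.048). It shares 2179 of its 5373 annotated exon bases with ADCY7 on the other strand, whose counts rose by 0.52. BRD9, which defines non-canonical BAF, fell by 0.40 ± 0.04, from 62.8 ± 0.207 to 47.5 ± 0.926 CPM (n = 3 each). It shares 182 of its 2344 exon bases with TRIP13 on the other strand, whose counts rose by 1.56.

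DPF1, DPF2 and DPF3 are double PHD finger subunits of BAF that bind acylated histone tails, and DPF1 and DPF3 are best known from neurons and from heart and muscle. DPF2, the general form, stood at 66.8 ± 1.74 CPM with DMSO and 62.8 ± 0.769 CPM with NTX301 (n = 3 each, log2 -0.09 ± 0.04, edgeR adjusted p = 0.066). It passed the threshold without DMSO replicate 3 (-0.12, adjusted p = 0.031), and its sign turned without a scaling factor (0.12, adjusted p = 0.016). DPF1 (BAF45B, ENSG00000011332.22, chromosome 19, 38211006 to 38229714) had 1.28, 1.58 and 1.40 CPM with DMSO and 3.59, 3.82 and 4.16 CPM with NTX301. Every treated library lay above every DMSO library (log2 1.44 ± 0.16, edgeR adjusted p = 7.5e-06), but DPF1 stayed far below DPF2 in TPM (3.58 ± 0.290 against 49.2 ± 1.01 with NTX301, n = 3). DPF3 (BAF45C, ENSG00000205683.12, chromosome 14, 72619296 to 72894116) had 3, 5 and 7 counts with DMSO and 22, 16 and 17 with NTX301. It entered the test through the NTX301 libraries alone, since no DMSO library reached the filter of 0.42 CPM, so a difference was built into its selection (log2 1.69 ± 0.39, edgeR adjusted p = 0.0022). On log2(TPM + 1) the DPF3 call was lost (0.12, limma adjusted p = 0.12).

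**Figure D2:**
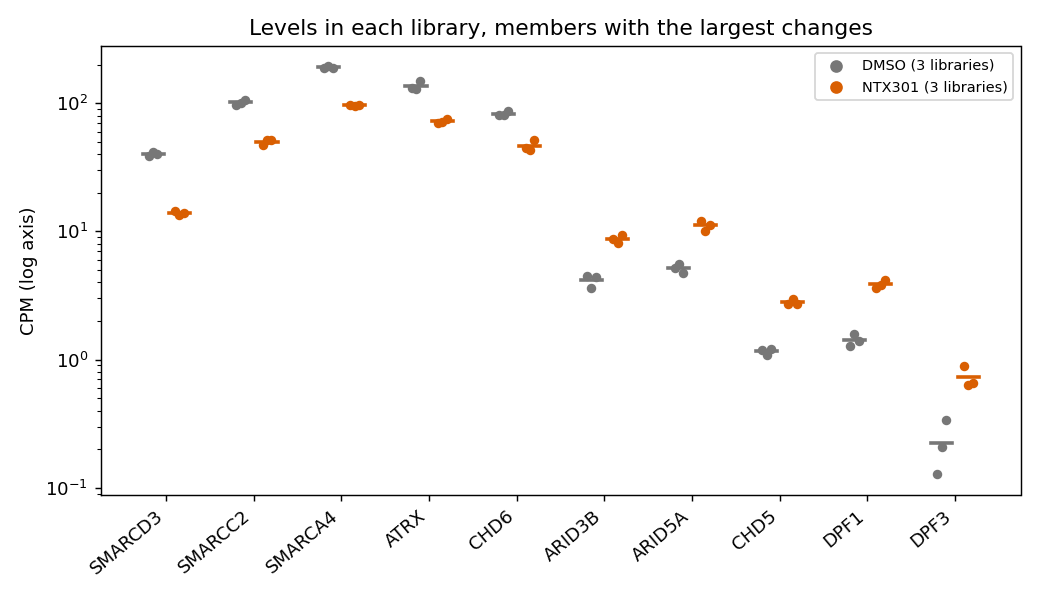
CPM on a log axis in each of the 6 libraries for the 10 members whose log2 fold change reached 0.8 in size (points, with the group mean as a bar). Grey is DMSO and orange NTX301. The genes were picked by the size of their change, so groups that lie apart follow from that choice and add no support. The genes that rose (right) stand at 0.128 to 12.1 CPM, below the genes that fell, but CPM does not correct for gene length. In TPM with NTX301 ARID5A, which rose, stood at 10.7, above CHD6, which fell, at 8.68.

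NTX301 is described as acting on DNA methylation, which sits on cytosines followed by guanine. Promoters are therefore shown, with every CG in capitals, for DPF1, DPF3 and SWI/SNF members that fell (SMARCA4, SMARCD3). DPF1 rose from a low level. DPF3 passed the filter on low counts only through the NTX301 libraries, so it is shown for its sequence and not as a riser. Windows run from 250 bases before to 50 bases after the RefSeq start of the gene (GRCh38.p14), 5′ to 3′ on the gene's strand, at chr19:38229646-38229945 (minus strand), chr14:72894052-72894351 (minus), chr19:10960780-10961079 (plus) and chr7:151277100-151277399 (minus). Which start OVCAR5 uses was not tested, and the RNA tables hold no methylation values.
DPF1: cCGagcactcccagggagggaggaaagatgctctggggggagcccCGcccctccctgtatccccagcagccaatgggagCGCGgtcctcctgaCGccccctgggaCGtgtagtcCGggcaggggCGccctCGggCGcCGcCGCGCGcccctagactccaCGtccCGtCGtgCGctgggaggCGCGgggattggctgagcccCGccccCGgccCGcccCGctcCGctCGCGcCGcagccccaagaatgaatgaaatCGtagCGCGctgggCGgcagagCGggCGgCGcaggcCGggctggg
DPF3: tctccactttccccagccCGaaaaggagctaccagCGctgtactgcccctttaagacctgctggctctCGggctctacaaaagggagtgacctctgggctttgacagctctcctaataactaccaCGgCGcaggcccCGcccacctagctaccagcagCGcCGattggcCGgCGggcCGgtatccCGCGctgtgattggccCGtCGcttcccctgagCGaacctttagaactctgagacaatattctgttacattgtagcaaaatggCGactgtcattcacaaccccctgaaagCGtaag
SMARCA4: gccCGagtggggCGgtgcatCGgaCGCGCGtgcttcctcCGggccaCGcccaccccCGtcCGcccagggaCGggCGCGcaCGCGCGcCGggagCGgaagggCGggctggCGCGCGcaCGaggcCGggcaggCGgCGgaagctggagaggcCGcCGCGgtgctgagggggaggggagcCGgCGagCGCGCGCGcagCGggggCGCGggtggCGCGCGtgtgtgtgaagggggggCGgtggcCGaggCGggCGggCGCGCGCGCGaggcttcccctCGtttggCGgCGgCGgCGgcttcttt
SMARCD3: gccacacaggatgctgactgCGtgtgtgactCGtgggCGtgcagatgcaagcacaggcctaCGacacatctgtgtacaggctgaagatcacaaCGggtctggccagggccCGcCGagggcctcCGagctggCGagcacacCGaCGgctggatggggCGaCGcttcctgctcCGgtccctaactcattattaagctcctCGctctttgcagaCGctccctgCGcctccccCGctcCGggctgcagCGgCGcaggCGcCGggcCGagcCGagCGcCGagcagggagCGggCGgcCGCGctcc
The dinucleotide CG, which reads the same on both strands, occurs in 95.8% of the 27305 windows of the same length and has a median of 14 per window. DPF1 held 36, DPF3 18, SMARCA4 55 and SMARCD3 31. The SMARCA4 count was matched or passed in 0.392% of all windows. Windows were matched for 37 members and all held CG. The 10 members called as risen, which include DPF3 with that limit, had a median of 29 and a range of 16 to 44. The 17 that fell had a median of 30 and a range of 5 to 55. The 9 that did not pass the threshold had a median of 25 and a range of 3 to 41. Members called in either direction and members not called thus covered overlapping ranges of CG count. Windows for SMARCC1, SMARCC2, ACTL6A, ARID2, CHD5, CHD6, CHD7, BPTF, ATRX, ARID3A and ARID3B were not used here.

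CHD proteins carry paired chromodomains, which in several of them read methylated histones, beside the ATPase. Of these 9 genes 5 fell, 3 rose and CHD2 did not pass the threshold, beside a background of 35.1% that fell and 35.4% that rose. Without a scaling factor 4 rose and 3 fell (background 46.2% and 24.9%). The same counts were found with the length trend removed (background 36.2% and 35.0%). On log2(TPM + 1) 4 rose and 2 fell (background 45.5% and 22.7%). With 9 genes these shares are too coarse to be read as a result about the family. The median log2 fold change of the 9 genes was -0.22, or -0.01 without a scaling factor. CHD4 (Mi-2 beta), the main ATPase of NuRD in most cells, was the most abundant CHD gene in TPM, at 123 ± 6.55 with DMSO. In CPM it went from 460, 478 and 487 with DMSO to 289.5, 291 and 319 with NTX301. The groups were well apart, and the fall was 0.66 ± 0.05 on the log2 scale (edgeR adjusted p = 1.2e-07). CHD4 shares 5846 of its 6798 exon bases with ENSG00000285238 on the same strand, which held 0.361% as many counts. CHD3, the alternative NuRD ATPase, fell by 0.21 ± 0.05, a call lost without a scaling factor (-0.01, edgeR adjusted p = 0.89) and with the length trend removed (-0.09, adjusted p = 0.055). CHD5 (ENSG00000116254.18, chromosome 1, 6101793 to 6180123), the neuronal NuRD ATPase and a tumour suppressor known to be silenced by promoter methylation in several cancers, had 1.19, 1.08 and 1.21 CPM with DMSO and 2.70, 2.95 and 2.72 CPM with NTX301. The NTX301 libraries were all higher (log2 1.27 ± 0.17, edgeR adjusted p = 3.9e-05), and in TPM CHD5 reached 0.543 ± 0.0208 with NTX301. It shares 214 of its 9646 exon bases with a coding gene without a symbol on the same strand (ENSG00000285629), which held 457% as many counts and changed by -0.51.

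CHD1 and CHD2 belong to the subfamily tied to transcribed genes. CHD1 rose by 0.31 ± 0.05, from 94.0 ± 3.99 to 117 ± 5.73 CPM, and CHD2 had 211 ± 9.45 and 216 ± 8.80 CPM (n = 3 each, log2 0.03 ± 0.05, edgeR adjusted p = 0.53). CHD2 passed the threshold without a scaling factor (0.24) and with the length trend removed (0.19). The long genes of the third subfamily moved unequally. CHD6 had 80.7, 81.2 and 87.3 CPM with DMSO and 44.6, 43.6 and 51.5 CPM with NTX301, with no overlap (log2 -0.83 ± 0.06, edgeR adjusted p = 2.1e-07). CHD7, the gene mutated in CHARGE syndrome, fell by 0.42 ± 0.04 and CHD9 by 0.26 ± 0.05, while CHD8, linked to autism, rose by 0.20 ± 0.05 to 177 ± 10.8 CPM (n = 3). The CHD7 call was lost on log2(TPM + 1) (-0.15, limma adjusted p = 0.093). The CHD9 call was lost without a scaling factor (-0.05) and with the length trend removed (-0.04, edgeR adjusted p = 0.31).

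Among the 7 INO80 genes, INO80E, INO80C and ACTR8 rose, INO80, INO80B and INO80D fell, and ACTR5 did not pass the threshold. The shares of 42.9% in each direction lay near the background of 35.4% that rose and 35.1% that fell. With 7 genes these shares are too coarse to be read as a result about the complex. INO80, the ATPase, fell by 0.30 ± 0.04, from 76.6 ± 1.26 to 62.3 ± 2.3 CPM (n = 3 each), a call lost without a scaling factor (-0.09, edgeR adjusted p = 0.083). INO80D fell by 0.48 ± 0.06, a call lost on log2(TPM + 1) (limma adjusted p = 0.088). On that scale 3 genes of the complex rose and none of the 7 fell, beside a background of 45.5% and 22.7%. INO80E rose by 0.50 ± 0.05, from 41.6 ± 1.52 to 58.6 ± 1.25 CPM (n = 3 each). It shares 972 exon bases with HIRIP3 on the other strand, whose counts rose by 0.66. INO80C rose by 0.46 ± 0.12 and the actin-related subunit ACTR8 by 0.29 ± 0.06, and ACTR5 had 9.41 ± 0.406 and 9.18 ± 1.02 CPM (n = 3 each, log2 -0.04 ± 0.10).

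INO80B had 13.3, 13.3 and 24.3 CPM with DMSO and 10.7, 12 and 7.86 CPM with NTX301, so DMSO replicate 3 stood apart from the other DMSO libraries. INO80B shares 1096 of its 1261 exon bases with the readthrough gene INO80B-WBP1, which had 464, 518 and 109 counts with DMSO beside 312, 319 and 504 for INO80B. The readthrough gene was lowest in the library where INO80B was highest. The sum of both genes was even across replicates, at 33.0, 34.9 and 29.5 CPM with DMSO and 18.95, 16.9 and 20.3 CPM with NTX301 (log2 -0.80 ± 0.08, edgeR adjusted p = 2.2e-06). For INO80B alone the fall was 0.73 ± 0.22 (edgeR adjusted p = 0.012) and 0.40 without DMSO replicate 3, and the call was lost without NTX301 replicate 3 (adjusted p = 0.058), without a scaling factor (0.056), in DESeq2 (0.055) and on log2(TPM + 1) (0.14).

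ISWI complexes pair SMARCA5 (SNF2H) or SMARCA1 (SNF2L) with partner subunits such as BPTF, the histone reader of NURF. BPTF was the ISWI member that fell, from 153, 151 and 165 CPM to 98.3, 98.7 and 104 CPM (log2 -0.64 ± 0.04, edgeR adjusted p = 1.2e-07). SMARCA5 stood at 145 ± 8.95 and 153 ± 2.99 CPM (n = 3 each, log2 0.08 ± 0.05) and SMARCA1 at 142 ± 6.02 and 134 ± 4.22 CPM (log2 -0.08 ± 0.04), neither past the threshold. Without DMSO replicate 3 SMARCA5 passed it (0.12, edgeR adjusted p = 0.013), as it did without a scaling factor (0.29) and with the length trend removed (0.22), and without a scaling factor SMARCA1 turned to 0.13.

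ATRX (ENSG00000085224.23, chromosome X, 77504878 to 77786233), an ATPase that works with DAXX to place histone H3.3 in heterochromatin and telomeres, had 131, 128 and 148 CPM with DMSO and 69.99, 71.4 and 75.4 CPM with NTX301. The lowest DMSO library was well above the highest treated one (log2 -0.91 ± 0.06, edgeR adjusted p = 4.1e-08). SMARCAD1, which helps to keep heterochromatin through replication, rose by 0.31 ± 0.04, from 52.4 ± 1.88 to 65.1 ± 0.930 CPM (n = 3 each). SMARCAL1, an annealing helicase of stalled replication forks, rose by 0.35 ± 0.05, from 28.7 ± 1.61 to 36.5 ± 0.584 CPM (n = 3 each).

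The ARID3, ARID4 and ARID5 genes share the ARID DNA-binding domain but are not SWI/SNF subunits. ARID5A, an RNA-binding protein that stabilises inflammatory transcripts such as that of IL-6, had 5.19, 5.58 and 4.72 CPM with DMSO and 12.1, 10.1 and 11.3 CPM with NTX301. Its level was higher in all 3 treated libraries (log2 1.11 ± 0.11, edgeR adjusted p = 1.9e-06). ARID3B had 4.51, 3.63 and 4.43 CPM with DMSO and 8.67, 8.14 and 9.41 CPM with NTX301, again without overlap (log2 1.06 ± 0.12, edgeR adjusted p = 5.9e-06). ARID3A, its paralogue, rose by 0.44 ± 0.10. ARID4A and ARID4B, subunits of SIN3 deacetylase complexes, changed by -0.11 ± 0.06 (not past the threshold) and -0.24 ± 0.05, and ARID5B by -0.23 ± 0.07. The calls of ARID4B and ARID5B were lost without a scaling factor (-0.03 for each), where the sign of ARID4A turned (0.10). Both calls were also lost on log2(TPM + 1) (-0.027 and 0.001, limma adjusted p = 0.75 and 0.99). The ARID5B call was lost with the length trend removed as well (-0.125, edgeR adjusted p = 0.14). ARID4A passed the threshold without DMSO replicate 1 (-0.16, edgeR adjusted p = 0.045).

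Paralogues that take the same place in a complex, and the related genes CHD1 and CHD2, were set against each other within each library. Values are log2 ratios of TPM, which do not depend on the scaling between libraries. SMARCA2 to SMARCA4 was -0.47, -0.47 and -0.46 with DMSO and 0.28, 0.42 and 0.34 with NTX301. In TPM SMARCA4 was thus higher in all DMSO libraries and SMARCA2 in all NTX301 libraries. The crossing depends on the length correction (mean lengths of 3199 bases for SMARCA2 and 5518 for SMARCA4). In counts SMARCA4 stayed higher with NTX301, at 2413, 2411 and 2473 beside 1711, 1880 and 1795 for SMARCA2. The mean TPM ratio of SMARCA2 to SMARCA4 went from 0.723 to 1.27, a log2 difference of 0.81 ± 0.04 (SE). SMARCD1 to SMARCD3 went from 1.31 to 2.81 (difference 1.10 ± 0.05), SMARCC1 to SMARCC2 from 1.12 to 1.61 (0.51 ± 0.08), SMARCD1 to SMARCD2 from 0.925 to 0.682 (-0.44 ± 0.03) and CHD3 to CHD4 from 0.427 to 0.582 (0.45 ± 0.03). SMARCA1 to SMARCA5 shifted less, from 1.91 to 1.71 (-0.16 ± 0.02), as did CHD1 to CHD2, from 0.470 to 0.551 (0.23 ± 0.02). ARID1A to ARID1B was 1.17 and 1.14, with overlapping groups (-0.05 ± 0.05).

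DPF1, CHD5 and DPF3 stayed minor beside their paralogues. DPF1 to DPF2 went from 0.0251 to 0.0726 (1.53 ± 0.07), CHD5 to CHD4 from 0.00157 to 0.00603 (1.95 ± 0.09) and DPF3 to DPF2 from 0.000694 to 0.0024 (1.79 ± 0.42). DPF3 rests on TPM values of 0.02 to 0.15 that are deposited with 2 decimals, and its rise was built into its selection. In the exact two-sided permutation test over the 6 libraries, ARID1A to ARID1B had p = 0.5 and the other 10 of the 11 pairs had p = 0.10, the smallest that 3 against 3 allows (0.11 and 0.5 after Benjamini-Hochberg adjustment over the 11), so this design cannot pass 0.05. A p of 0.10 says only that the 2 groups did not overlap. How often other gene pairs lie apart was not tested, and 70.5% of all tested genes were called. The ratios also restate the members' own changes, so they add no separate support. The twelfth listed pair, ACTL6A and ACTL6B, was not compared because ACTL6B was not tested.

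**Figure D3:**
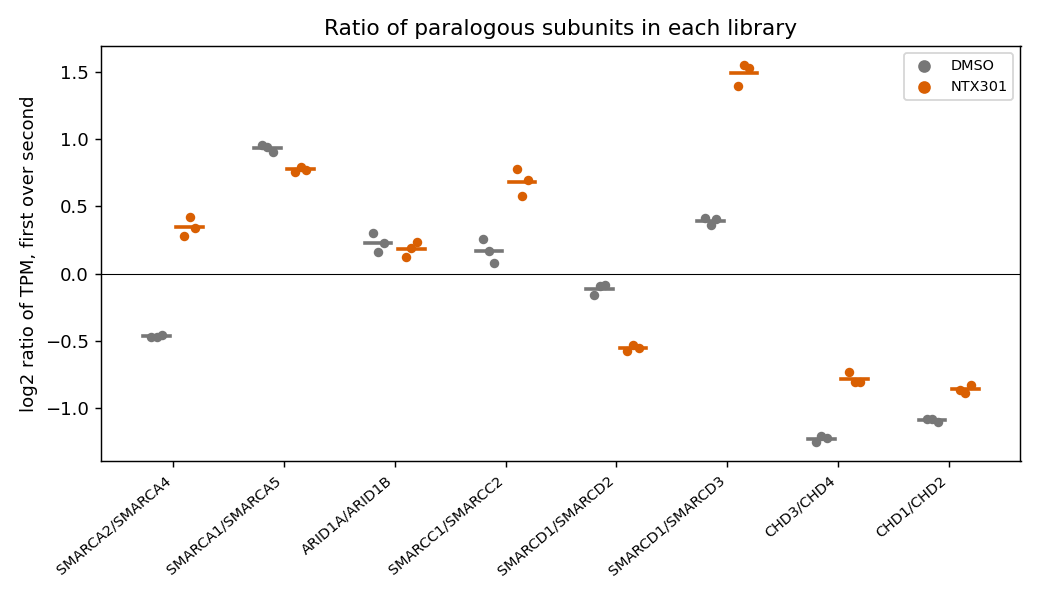
Log2 ratio of TPM between paralogous members in each library (vertical axis, first gene over second), with group means as bars, for the 8 pairs within 3 log2 units of equal level. Grey is DMSO and orange NTX301. SMARCA2/SMARCA4 crosses 0 in TPM, from -0.47 to 0.34, but not in counts, and ARID1A/ARID1B overlaps.

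Of 66 tested partner genes in 6 lists, 25 rose (37.9%) and 26 fell (39.4%), near the background of 35.4% and 35.1%, with a median log2 fold change of -0.01. Without a scaling factor 38 rose and 16 fell (background 46.2% and 24.9%). The lists are too short for their own counts to be read against these shares, and their members are given as single values. Among 11 other BAF subunits 3 rose and 5 fell: BICRAL, a subunit of non-canonical BAF, fell by 1.11 ± 0.08 and BCL7A by 0.87 ± 0.07, while PHF10, a PBAF subunit, rose by 0.32 ± 0.05. BCL11B, a transcription factor found with BAF in lymphocytes and neurons, had 0.213, 0.4999 and 0.289 CPM with DMSO and 1.17, 0.905 and 0.856 CPM with NTX301 (log2 1.52 ± 0.35). Only 1 DMSO library reached the filter of 0.42 CPM, so BCL11B was tested because it is high with NTX301 and its call supports nothing. In NuRD, beside the CHD ATPases, 3 of 12 rose and 6 fell. MTA1 and MTA3, which anchor the deacetylases, fell by 0.95 ± 0.04 and 0.65 ± 0.04, and HDAC2 and RBBP7 rose by 0.14 ± 0.04 and 0.15 ± 0.05. Only 1 of the 12 rose without DMSO replicate 3, without NTX301 replicate 1 or without NTX301 replicate 2.

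Among 14 other subunits of INO80 and of the related SRCAP and TIP60 complexes, 5 rose and 6 fell. The deubiquitinase UCHL5 rose by 1.13 ± 0.04 and TFPT by 0.66 ± 0.07, whereas the ATPases SRCAP and EP400, which load the variant histone H2A.Z, fell by 0.95 ± 0.04 and 0.83 ± 0.04. Of 8 tested ISWI partners 3 rose and 2 fell: POLE3, a small histone-fold protein, rose by 1.16 ± 0.05 and BAZ1A by 0.66 ± 0.05, and BAZ2A and BAZ2B fell by 0.77 ± 0.04 and 0.84 ± 0.05. Of 12 other SNF2-family genes 7 rose and 4 fell. The mitotic helicase ERCC6L rose by 1.20 ± 0.09 and HELLS (LSH), needed for DNA methylation of repeats, by 1.19 ± 0.07, while SHPRH fell by 0.61 ± 0.10 and ZRANB3 by 0.25 ± 0.08. The ZRANB3 call was lost without a scaling factor (-0.04, edgeR adjusted p = 0.66), with the length trend removed (adjusted p = 0.06) and on log2(TPM + 1) (0.04, limma adjusted p = 0.78). The number of this list that fell was 1 without a scaling factor and 2 in DESeq2 and with the length trend removed. Of 9 genes for histone H3.3 and its deposition 4 rose and 3 fell. The chaperone ASF1B rose by 1.31 ± 0.05 and DAXX, the partner of ATRX, by 0.60 ± 0.06, while the H3.3 genes H3-3A and H3-3B fell by 0.57 ± 0.05 and 0.67 ± 0.05.

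Many remodellers are long transcripts, and gene length moved with the fold change across all genes. Among 2896 tested genes of 5000 bases or longer, 33.1% rose and 45.9% fell, with a median log2 fold change of -0.11, and among the 16133 shorter genes 35.9% rose and 33.2% fell, with a median of 0.02. The 25 members of 5000 bases or longer had 5 that rose and 17 that fell (68.0% fell, median -0.30), and the 22 shorter members 9 and 7 (40.9% and 31.8%, median -0.03). With the trend of counts on gene length removed in each library, 16 members rose and 23 fell (background 36.2% and 35.0%). In that fit SMARCA4 changed by -0.92, SMARCC2 by -0.98, SMARCD3 by -1.55, CHD6 by -0.63 and ATRX by -0.70. The calls of CHD3, CHD9 and ARID5B were lost in it, while DPF2, BRD7, CHD2 and SMARCA5 passed the threshold.

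**Figure D4:**
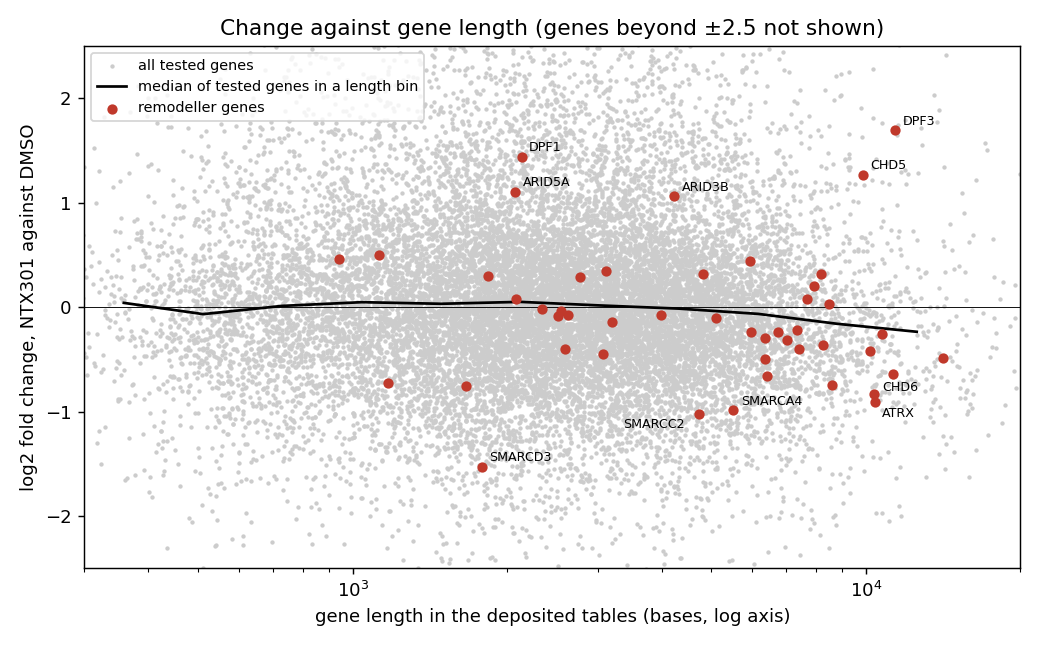
Log2 fold change of NTX301 against DMSO (vertical axis) against gene length in bases (log axis), for all tested genes within ±2.5 (grey) and the remodellers (red), with the median of tested genes in length bins as a black line. The line drops below 0 for the longest genes, where many remodellers lie, and SMARCD3 and DPF1 are short members with large changes.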

How the data were processed

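RNA sequencing tables of 6 OVCAR5 libraries, 3 per treatment, were analysed. A further dose of 10 nM and methylation arrays, both mentioned in the labels, were not analysed here. RNA was isolated with TRI Reagent, cleared of DNA with DNase and made into libraries with a NEBNext Ultra II RNA kit, per the labels' protocols. Per the file headers, the tables are in RSEM's gene format. Its expected counts, used as deposited, estimate the reads of each gene without normalization. The deposited TPM values were scaled by the authors over all genes of a table. The sources used here do not state versions, genome build, annotation or strand setting, and overlapping genes may not be separated. Of the tested members, 13 share exon bases with a tested gene on the other strand.

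The 47 chromosome Y copies of pseudoautosomal genes among 62703 entries were added to their X copies. Symbols came from a table matched by stable identifier (62639 of 62656 genes). Gene types, positions and exons came from GENCODE 29 (GRCh38), with exons taken for the transcripts the tables list. The members and gene lists were chosen with earlier results of these data known. Values in every library were printed for called members with an absolute log2 fold change of 0.8 or more, and each list names its 2 largest called changes per direction. Groups that lie apart in members picked this way add no support beyond the test.

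Expected counts were rounded and tested with edgeR 4.0.16 in R 4.3.3 on all 6 libraries (filterByExpr, TMM, quasi-likelihood F test, treatment as the only term), with Benjamini-Hochberg adjustment over 19029 genes and a threshold of 0.05. The fits were tested on simulated data. TMM factors were 0.9206 to 0.939 for DMSO and 1.0679 to 1.0834 for NTX301. No replicate pair was taken for a duplicate (chi-square over degrees of freedom 2.37 to 6.57). Alternatives were RLE factors, no scaling, no filter, DESeq2 1.42.0, limma-voom (limma 3.58.1), limma on log2(TPM + 1), removal of a per-library lowess trend on log2 length, a replicate block and leaving out each library. Promoter windows are RefSeq's (GRCh38.p14).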

Additional observations from a re-analysis of the deposited data

How the results depend on the processing

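Of the 47 tested members, 14 rose and 24 fell. Leaving out 1 library at a time gave 14 to 15 and 23 to 25, and 6 to 8 members changed 2-fold or more. With the replicate number as a block, 14 rose and 24 fell, and no member's call changed. Same-numbered libraries did not deviate together (correlations 0.075, -0.037 and 0.034), so the numbers are not read as pairs. RLE factors, limma-voom and no filter changed no member's call, and DESeq2 lost that of INO80B. Scaling and unit mattered most. On log2(TPM + 1), 19 members rose and 12 fell, 3 changed 2-fold or more and 4318 of all tested genes fell, against 6677. Of the partner genes in 6 lists, 38 rose and 16 fell both there and without a scaling factor, against 25 and 26. Signs turned without a scaling factor for SMARCA2 (0.067), SMARCD2 (0.185), DPF2 (0.118), BRD7 (0.13), ACTR5 (0.17), SMARCA1 (0.127) and ARID4A (0.097). The same genes turned on log2(TPM + 1), at 0.038, 0.189, 0.132, 0.12, 0.147, 0.13 and 0.134 in this order, as did ARID5B (0.001). Without NTX301 replicate 3, CHD2 turned to -0.001 and ACTR5 to 0.017, in a range over left-out libraries of -0.001 to 0.057 for CHD2 and -0.131 to 0.017 for ACTR5. From rounded counts in place of TPM, the CHD1 to CHD2 difference was 0.279, against 0.229, and the cause was not tested. Adding INO80B-WBP1 to INO80B was chosen after seeing the data. Precision at low level is limited by depth, as for DPF3 with 3 to 22 counts per library.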
